A study of Homo sapiens with 12 samples.

Results

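A short hairpin against RARRES2, shRARRES2_1, was compared with a hairpin against GFP, shGFP, in 786-O cells, an established line of clear cell renal cell carcinoma that lacks a working VHL protein. The comparison covers 14426 genes of the 58381 listed. These are the genes that reached 1 CPM (read counts scaled to a fixed library total, which the authors adjusted between libraries) in at least 3 of the 6 libraries, and 12408 of them are protein coding. Both groups held 3 libraries. Both were infected with a lentivirus, so what shGFP controls for is a hairpin without a target in these cells. The series also has 3 libraries each of shRARRES2_2 and shRARRES2_3, which carry other hairpins against the same gene and are used here to ask where shRARRES2_1 stands apart from them. The labels give no clone, selection or time after infection, and do not say whether the replicates are separate cultures. If they are not, the p-values measure technical spread alone.

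RARRES2 encodes chemerin, a protein secreted as an inactive precursor and trimmed by proteases into a chemoattractant. CMKLR1 is its main signalling receptor, GPR1 a second receptor that signals weakly, and CCRL2 a surface protein that binds chemerin and presents it to other cells without classical signalling. In clear cell carcinoma, chemerin has been studied for its part in the handling of fatty acids, which these lipid-rich tumours store.

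The libraries held 12599424 to 23594195 reads on genes, and 3 reads amounted to 0.143 to 0.223 CPM in the 6 libraries compared. The renal transcription factor PAX8 had 243, 364 and 372 CPM with shRARRES2_1 and 303, 391 and 278 CPM with shGFP, while 5 of 10 renal and clear cell markers passed the filter; CA9, LHX2, LRP2, AQP1 and SLC34A1 did not. Replicates 2 and 3 of shRARRES2_1 were nearly alike, with 10 genes more than 2-fold apart (r = 0.997 across genes). They nevertheless differed by more than sampling noise, with a chi-square of 3.13 per degree of freedom against 71.7 to 414 for the other pairs within groups, and both were kept. That difference does not show that they are separate cultures. If they are not, the tests below count 1 culture as 2 libraries and their p-values are too low. With the 2 averaged, 6 of the 20 genes called below kept their call. Replicate 1 was more than 2-fold from both of them in 3300 genes, 1565 higher and 1735 lower. It lay closer to shRARRES2_3 replicate 1 (r = 0.979) than to its own replicates (r = 0.940 and 0.933), and it had 21217 genes with a read where replicates 2 and 3 had 27476 and 27484. Among the controls, shGFP replicate 2 stood more than 2-fold from both others in 1906 genes and lay closest to shRARRES2_3 replicate 2 (r = 0.981). Each r was taken across genes on the log2 scale and describes the libraries only.

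**Figure D1:**
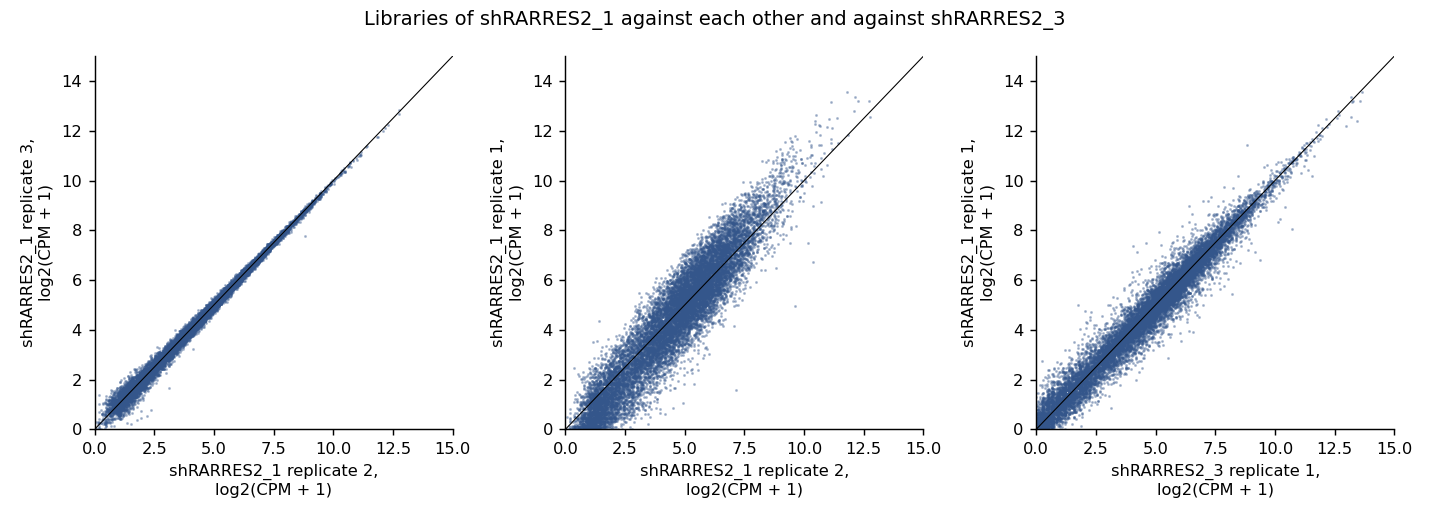
Each point is 1 of the 14426 genes, on log2(CPM + 1) scales; the line marks equal values. shRARRES2_1 replicates 3 and 2 (left) almost coincide, replicate 1 spreads widely against replicate 2 (middle), and replicate 1 follows shRARRES2_3 replicate 1 more closely (right).

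shRARRES2_1 lowered its target. RARRES2 (ENSG00000106538.9, minus strand of chromosome 7 at 150338317 to 150341674) had 40.5, 41.04 and 37.5 CPM with shRARRES2_1, against 809, 483 and 469 CPM with shGFP. The hairpin libraries lay within a few CPM of each other and far below every control, at 6.76% of the control mean, 39.7 ± 1.91 against 587 ± 192 CPM (SD, n = 3 each). Its log2 change was -3.81 (SE 0.27) on the log2(CPM + 1) scale used throughout, with a limma adjusted p = 9.82e-05, the lowest of all genes tested. With 3 against 3 libraries there are 20 splits, so an exact permutation test (two-sided) cannot go below the p = 0.10 that it gave here.

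Of the chemerin-binding proteins, CCRL2 (chromosome 3 at 46407163 to 46412997) was the one that rose. It had 13.2, 7.85 and 7.26 CPM with shRARRES2_1, against 0, 0.676 and 0.222 CPM with shGFP. As every control was under 1 CPM, the filter required the groups not to overlap. The log2 change was 2.99 (SE 0.39; limma adjusted p = 0.00973). Its call was lost when any one of shRARRES2_1 replicate 2, shRARRES2_1 replicate 3, shGFP replicate 1 or shGFP replicate 3 was left out (limma adjusted p = 0.0546, 0.0509, 0.101 and 0.0663). GPR1 had 6.21, 3.20 and 3.72 CPM with shRARRES2_1 and 0.668, 0.728 and 11.3 CPM with shGFP, so 1 control library lay above the hairpin libraries and the others below them (limma adjusted p = 0.634). CMKLR1 was at or under 0.143 CPM, or 3 reads, in each of the 6 and could not be tested.

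Across all genes, 10 rose with shRARRES2_1 (0.0693% of those tested) and 10 fell (0.0693%) at a limma adjusted p under 0.05. An unadjusted p under 0.05 was reached by 2398 genes, 1288 higher and 1110 lower, and the median log2 change over all genes was 0.05. The 3 hairpin libraries lay above all 3 controls in 2526 genes (17.5%) and below them in 2112 (14.6%). The gap between the groups was more than 2-fold for 115 of the higher and 105 of the lower genes, and more than 4-fold for 9 and 6. On a common total per library the calls were 6, split 4 higher and 2 lower, and the median log2 change over all genes was 0.00. Averaging the near-alike replicates 2 and 3 into 1 left 6 of the 20 calls, those of RARRES2, GOLGA7B, RP11-95M15.3, CCRL2, MARCKSL1 and MTPN. Leaving out 1 library at a time moved the count to 31, 3 and 4 without shRARRES2_1 replicates 1, 2 and 3, and to 4, 11 and 3 without shGFP replicates 1, 2 and 3. The libraries of the other hairpins enter only through the shared spread, and without 1 of them the count was 11, 10 and 8 for shRARRES2_2 replicates 1, 2 and 3 and 86, 207 and 9 for shRARRES2_3 replicates 1, 2 and 3. RARRES2, GOLGA7B and RP11-95M15.3 kept their call without each of the 6 compared libraries. The filter was not redone in these fits. RP11-95M15.3, under 1 CPM in every control, had passed it through the hairpin libraries alone, so its lack of overlap was fixed in each fit.

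**Figure D2:**
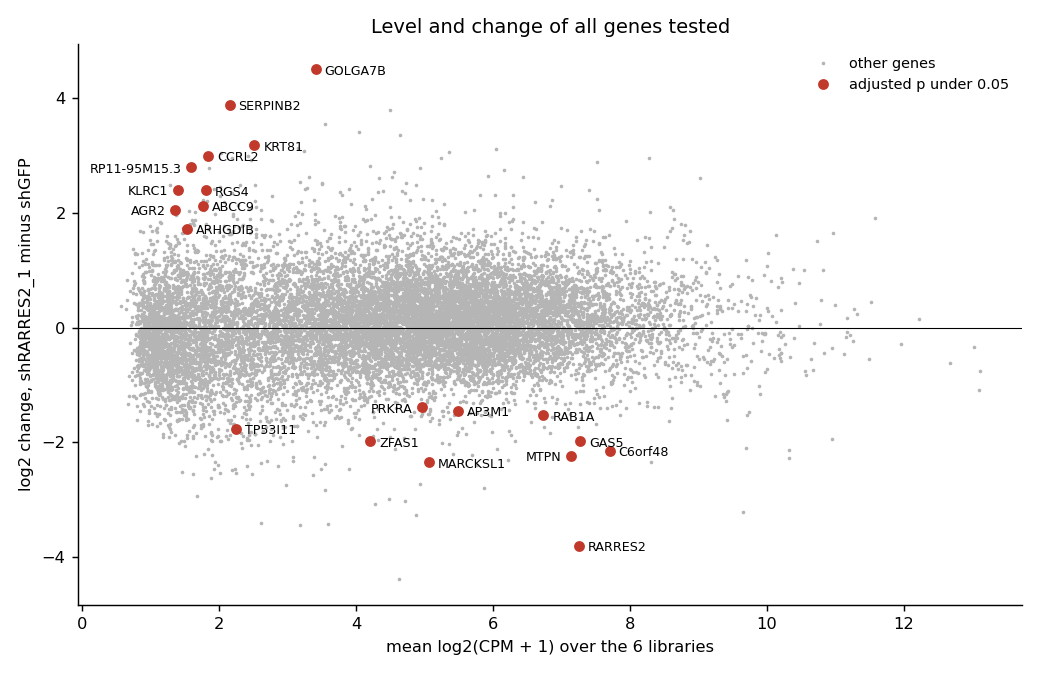
Log2 change of shRARRES2_1 minus shGFP against the mean log2(CPM + 1) over the 6 libraries, 1 point a gene; red points are the 20 genes with a limma adjusted p under 0.05. All 10 raised genes sit at low mean levels, and the lowered ones run across the range with RARRES2 the farthest below 0 among them.

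The raised genes were close to silent in the controls. Each of the 10 averaged under 2 CPM with shGFP, and no control library had more than 1.91 CPM of any of them. All but GOLGA7B and KRT81 were under 1 CPM in every control. These 8 passed the filter through the hairpin libraries alone, as 135 genes did, and had to be higher there to be tested at all. Their low control level and the lack of overlap between their groups are therefore not results. GOLGA7B, of a family of proteins that act in palmitoylation (chromosome 10 at 97850239 to 97871580), had 30.9, 60.5 and 64.9 CPM with shRARRES2_1, against 0.965, 0.935 and 1.91 CPM with shGFP. It had the largest rise among the called genes, with a log2 change of 4.50 (SE 0.48; limma adjusted p = 0.00420). SERPINB2, the inhibitor of urokinase also called PAI-2, had 5.47, 27.3 and 26.3 CPM with shRARRES2_1, against 0.0742, 0.364 and 0.0444 CPM with shGFP (log2 change 3.89, SE 0.50; limma adjusted p = 0.00919). Replicate 1 of the hairpin carried much less of it than the others, and the filter required it to lie above every control. SERPINB10 overlaps SERPINB2 on the same strand, so their reads may be shared.

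The hair keratin KRT81 had 11.8, 19.8 and 18.1 CPM with shRARRES2_1, against 1.19, 0.364 and 1.29 CPM with shGFP (log2 change 3.18, SE 0.50; limma adjusted p = 0.0365). The intergenic RNA RP11-95M15.3, on chromosome 6 at 137693068 to 137700415, had 5.68, 7.70 and 7.59 CPM with shRARRES2_1, against 0, 0.104 and 0.355 CPM with shGFP (log2 change 2.79, SE 0.31; limma adjusted p = 0.00420). The groups of KRT81 did not overlap, and for RP11-95M15.3, under 1 CPM in every control, the filter required this. KRT81 has close relatives among the hair keratins and overlaps KRT86, so its reads are uncertain.

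KLRC1, which encodes the inhibitory receptor NKG2A of natural killer cells, had 2.12, 6.98 and 7.83 CPM with shRARRES2_1 and 0.223, 0.208 and 0 CPM with shGFP (log2 change 2.41, SE 0.36; limma adjusted p = 0.0314). It overlaps its near copy KLRC2 on the same strand, and the counting could split reads between them. RGS4, which shortens signalling by G proteins, had 5.89, 6.83 and 8.50 CPM with shRARRES2_1, against 0.297, 0.987 and 0.355 CPM with shGFP (log2 change 2.40, SE 0.39; limma adjusted p = 0.0377). ABCC9, the regulatory subunit of ATP-sensitive potassium channels, had 4.20, 6.74 and 7.73 CPM, against 0.594, 0.416 and 0.887 CPM with shGFP (log2 change 2.12, SE 0.31; limma adjusted p = 0.0243). In all 3 genes the lowest hairpin library was replicate 1.

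AGR2, a disulfide isomerase of secretory epithelia, had 3.61, 4.85 and 4.20 CPM with shRARRES2_1, against 0.223, 0.520 and 0.0444 CPM with shGFP (log2 change 2.06, SE 0.32; limma adjusted p = 0.0338). ARHGDIB, a signalling inhibitor best known from blood cells, had 3.98, 4.17 and 4.63 CPM, against 0.965, 0.624 and 0.266 CPM with shGFP (log2 change 1.72, SE 0.28; limma adjusted p = 0.0423). Their hairpin libraries were close together, and the filter required them to lie above the controls. Among markers of blood cells, 1 of 7 leukocyte markers passed the filter, and its list sum was 2.97, 1.36 and 1.38 CPM with shRARRES2_1 and 1.78, 2.23 and 1.95 CPM with shGFP.

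**Figure D3:**
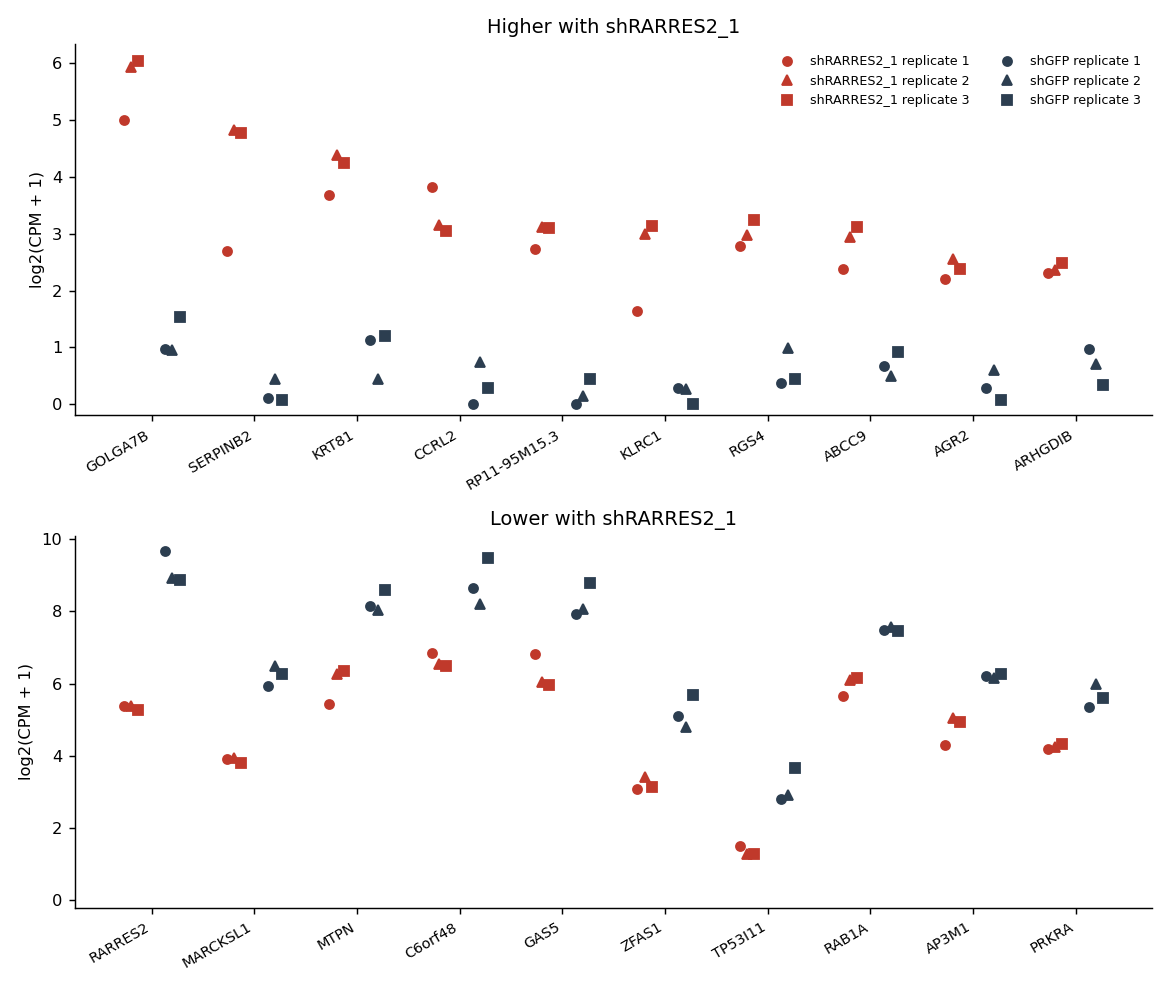
Log2(CPM + 1) of the 20 called genes in each library, shRARRES2_1 in red to the left of shGFP in dark blue; symbols give the replicate. In every gene the 3 red points lie on one side of the 3 blue ones, which the filter required of 8 raised genes. Red replicates 2 and 3 lie together.

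The genes that fell were well expressed in the controls, at 6.01 CPM or more in every shGFP library. MARCKSL1, a relative of MARCKS that binds and bundles actin filaments (chromosome 1 at 32333832 to 32336379), had 14.1, 14.4 and 12.8 CPM with shRARRES2_1, against 59.98, 88.7 and 76.5 CPM with shGFP (log2 change -2.35, SE 0.29; limma adjusted p = 0.00876). MTPN, or myotrophin, which binds the actin capping protein and keeps it off filament ends (chromosome 7 at 135926761 to 135977353), had 42.3, 75.8 and 80.9 CPM, against 282, 263 and 381 CPM with shGFP (log2 change -2.24, SE 0.28; limma adjusted p = 0.00919). LUZP6 overlaps MTPN on the same strand and may share its reads. RARRES2, MARCKSL1 and MTPN were also the 3 genes that edgeR called on the recovered reads (adjusted p = 7.22e-04, 0.0158 and 0.0317).

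A pair of trafficking genes fell less. RAB1A, the small GTPase of transport between endoplasmic reticulum and Golgi, had 49.02, 68.1 and 70.7 CPM with shRARRES2_1, against 178, 187 and 175 CPM with shGFP (log2 change -1.53, SE 0.22; limma adjusted p = 0.0238). AP3M1, the mu subunit of the AP-3 adaptor that sorts cargo towards lysosomes, had 18.7, 32.2 and 29.7 CPM, against 72.97, 70.6 and 76.1 CPM with shGFP (log2 change -1.45, SE 0.24; limma adjusted p = 0.0438). The control libraries of both were tightly grouped, and hairpin replicate 1 was the lowest library.

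PRKRA, or PACT, a partner of Dicer and an activator of the kinase PKR, had 17.4, 17.9 and 19.2 CPM with shRARRES2_1, against 39.9, 63.1 and 47.5 CPM with shGFP (log2 change -1.39, SE 0.23; limma adjusted p = 0.0438). It was the one gene called among 18 of the small RNA and double-stranded RNA pathway, where 0.0693% of all genes fell. The median log2 change of that list was 0.02. Among the first genes of that list, DICER1 had 33.8, 79.5 and 86.8 CPM with shRARRES2_1 and 72.9, 85.5 and 94.4 CPM with shGFP. AGO2 had 119, 167 and 183 CPM, against 153, 282 and 250 CPM with shGFP; neither passed the test (limma adjusted p = 0.595 and 0.423). TP53I11, a p53-inducible membrane protein, had 1.86, 1.45 and 1.43 CPM with shRARRES2_1, against 6.01, 6.50 and 11.6 CPM with shGFP (log2 change -1.76, SE 0.30; limma adjusted p = 0.0488). TP53I11 was not in the list of p53 targets, of which 21 were measured and none was called. That list had a median log2 change of 0.31, which was 0.025 without shRARRES2_1 replicate 1, 0.05 without shGFP replicate 2 and 0.15 without shGFP replicate 1.

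The remaining 3 lowered genes host small nucleolar RNAs, which guide the modification of ribosomal RNA and are cut from the introns of these transcripts. Many such hosts belong to a class whose messages begin with a C and a run of pyrimidines, through which growth signalling sets translation. Their start regions are shown because these 3 genes fell together. Each run covers the 50 bases before and the first 30 bases of the transcript start in RefSeq (GRCh38.p14), and capitals mark a C followed by C or T, at least 5 bases long, that opens between 2 bases before the start and base 3.
C6orf48, now SNHG32, plus strand, chr6:31834866-31834945: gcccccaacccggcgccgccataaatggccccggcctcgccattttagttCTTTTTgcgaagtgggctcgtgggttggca
ZFAS1, plus strand, chr20:49278592-49278671: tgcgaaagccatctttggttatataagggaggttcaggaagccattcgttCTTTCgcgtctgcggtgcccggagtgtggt
GAS5, minus strand, chr1:173869016-173869095: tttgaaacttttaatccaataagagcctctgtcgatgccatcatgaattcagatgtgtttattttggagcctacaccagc
Such a run stood at the start of C6orf48 and ZFAS1 and not in this window of GAS5. The whole GAS5 window lies outside the gene as GENCODE 29 draws it, so the start drawn there was not looked at. A run was found in 7 of the 16 snoRNA host genes of the list that matched the table, of 18, and in 10.5% of all 35116 promoters.

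C6orf48 had 115, 93.1 and 88.3 CPM with shRARRES2_1, against 399, 296 and 709 CPM with shGFP (log2 change -2.15, SE 0.35; limma adjusted p = 0.0413). GAS5 had 112, 64.9 and 61.7 CPM, against 242, 266 and 441 CPM with shGFP (log2 change -1.98, SE 0.32; limma adjusted p = 0.0366). ZFAS1 had 7.49, 9.74 and 7.83 CPM, against 33.5, 26.8 and 50.5 CPM with shGFP (log2 change -1.98, SE 0.31; limma adjusted p = 0.0366). In all 3 the highest library was shGFP replicate 3, and the groups stayed apart. Each kept its call in 1 of the 6 fits that left out a compared library. None kept it with replicates 2 and 3 averaged (limma adjusted p = 0.221, 0.221 and 0.207 for C6orf48, GAS5 and ZFAS1). DESeq2 called all 3 and edgeR none (edgeR adjusted p = 0.0748, 0.0748 and 0.0546). Of the 18 host genes measured, 3 were called lower, where 0.0693% of all genes were. In all, 16 were below 0 with a median log2 change of -0.93, and 9 lay below all controls where 14.6% of all genes did. Their values without 1 library ran from a median of -1.10 to -0.77. Reads of GAS5 and ZFAS1 cannot be told apart from those of genes that overlap them on the opposite strand, GAS5-AS1 and ZNFX1, unless the counting used strand, which is not stated.

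Some genes stood clear of the controls by a wide gap without passing the test. LBP, the plasma protein that binds lipopolysaccharide, had 3.88, 3.83 and 5.73 CPM with shRARRES2_1, against 86.7, 152 and 108 CPM with shGFP. Its log2 change was -4.39, larger in size than that of RARRES2, with a limma adjusted p = 0.126. The complement genes C4A and C4B had log2 changes of -3.42 and -3.41 (limma adjusted p = 0.107 and 0.130); they are near-identical copies, and how their shared reads were counted is not stated. C4A had 2.97, 3.25 and 1.91 CPM with shRARRES2_1 and 43.5, 44.02 and 29.01 CPM with shGFP. BCAM, the laminin-binding Lutheran antigen, had 9.19, 7.70 and 7.92 CPM, against 74.7, 98.5 and 55.4 CPM with shGFP (limma adjusted p = 0.0536). MFNG, a sugar transferase that modifies Notch receptors, had 1.01, 1.55 and 1.38 CPM, against 10.8, 10.6 and 12.5 CPM with shGFP (limma adjusted p = 0.128), and SCART1 was lower in a like way, at a log2 change of -2.62 (limma adjusted p = 0.126). None of these genes' groups overlapped, which the filter required of SCART1, under 1 CPM in every hairpin library. The spread that the test uses comes from all 12 libraries. When the 6 compared libraries alone were fitted, the limma adjusted p was 0.00445 for LBP, 0.00845 for C4A, 0.0173 for C4B, 0.0109 for BCAM, 0.0191 for MFNG and 0.0257 for SCART1. These genes were chosen for the gap between those same 6 libraries, so neither the lack of overlap nor the low p in that fit is support. In that fit 12 of the 20 called genes kept their call.

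On the higher side, SIGLEC15, a receptor for sialic acids, had 92.6, 76.2 and 82.0 CPM with shRARRES2_1, against 8.46, 3.74 and 3.99 CPM with shGFP (log2 change 3.80, limma adjusted p = 0.175). IRF8, an interferon regulatory factor of myeloid cells, had 15.7, 9.16 and 8.45 CPM, against 0.817, 0 and 0.532 CPM with shGFP (log2 change 3.06, limma adjusted p = 0.0504), just short of the threshold. RP11-301G19.1, a noncoding RNA on chromosome 6, had 16.1, 12.9 and 13.4 CPM, against 1.34, 0.208 and 1.38 CPM with shGFP (log2 change 3.00, limma adjusted p = 0.107). None of the 3 overlapped between the groups, which for IRF8, under 1 CPM in every control, the filter required. With the 6 compared libraries alone the limma adjusted p was 0.00700 for SIGLEC15, 0.0191 for IRF8 and 0.0191 for RP11-301G19.1. These genes too were chosen for the gap between those libraries, so that fit is no support for them.

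Groups of genes are described by how many members lay above or below 0 beside the median of all genes, 0.05, and by how many lay clear of all 3 controls, which 17.5% of all genes did above them and 14.6% below; the examples given beyond the first members of each list were chosen after their values were seen. Of 39 actin filament regulators, 23 lay above all controls (58.97%, where 17.5% of all genes did). Another 5 lay below them, the called MARCKSL1 and MTPN among these, a share of 12.8% beside 14.6% of all genes, and the median log2 change was 0.57 (0.47 to 0.77 without 1 library). Beta-actin itself, ACTB, had 10559, 4539 and 4421 CPM with shRARRES2_1 and 2771, 828 and 1726 CPM with shGFP. Profilin PFN1 had 1489, 662 and 620 CPM, against 295, 213 and 284 CPM with shGFP. CAPZA1, the alpha subunit of the capping protein that MTPN binds, had 65.4, 104 and 106 CPM, against 164, 191 and 195 CPM with shGFP. Neither ACTB, PFN1 nor CAPZA1 passed the test (limma adjusted p = 0.269, 0.246 and 0.122).

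Genes of the cell cycle were mostly above 0 and none was called. Of 35 DNA replication genes, 34 were above 0 and 24 lay above all controls (68.6%, where 17.5% of all genes did), with a median log2 change of 1.11. Of 27 mitosis genes, 26 were above 0 and 13 lay above all controls (48.1%), with a median of 1.18. MCM2, a subunit of the replicative helicase, had 420, 138 and 138 CPM with shRARRES2_1, against 66.9, 55.97 and 85.8 CPM with shGFP (log2 change 1.54, limma adjusted p = 0.263). The kinase AURKB had 162, 58.4 and 60.2 CPM, against 47.9, 8.52 and 44.9 CPM with shGFP (log2 change 1.60, limma adjusted p = 0.342). The median mitosis gene had 112, 85.3 and 87.1 CPM with shRARRES2_1 and 81.1, 13.5 and 74.3 CPM with shGFP, so shGFP replicate 2 held the low end. Without that library the median of the mitosis list was 0.36 and that of DNA replication 0.74.

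The interferon response list had the highest median, 1.53, with 35 of 39 members above 0 and none called. The 8 that lay above all controls are 20.5% of the list, near the 17.5% of all genes. ISG15, a ubiquitin-like protein, had 939, 373 and 351 CPM with shRARRES2_1 and 24.4, 19.2 and 582 CPM with shGFP (limma adjusted p = 0.319). IFIT1 had 253, 112 and 124 CPM, against 23.8, 4.26 and 109 CPM with shGFP (limma adjusted p = 0.325). The control libraries were far apart, with replicate 3 near or above the hairpin libraries and the others well below. The list's median was 0.55 without shGFP replicate 2 and 2.73 without shGFP replicate 3. Chemokines and cytokines likewise had a median of 0.82, which was -0.09 without shGFP replicate 2 and 1.28 without shGFP replicate 3.

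Fatty acid oxidation genes were above 0 in 20 of 23 cases, with a median log2 change of 0.48 and none called. Above all controls lay 8 of them (34.8%, where 17.5% of all genes did), and below all controls 2 (8.70%, where 14.6% did). CPT1A, which brings long-chain fatty acids to the mitochondrial matrix, had 66.6, 54.8 and 55.4 CPM with shRARRES2_1, against 7.13, 6.08 and 34.5 CPM with shGFP. All hairpin libraries lay above the controls, of which replicate 3 was much the highest (log2 change 2.23, SE 0.73; limma adjusted p = 0.216). HADHA, of the trifunctional protein of beta-oxidation, had 430, 169 and 163 CPM, against 139, 131 and 140 CPM with shGFP (limma adjusted p = 0.395). Without shRARRES2_1 replicate 1 the list's median was 0.27. Glycolysis genes had the same median, 0.48, with 18 of 21 above 0 and 8 above all controls (38.1%), and 0.13 without that library. PKM had 9052, 2249 and 2162 CPM with shRARRES2_1, against 1388, 943 and 1092 CPM with shGFP (limma adjusted p = 0.326). Complex I subunits had a median of 0.40 (0.12 without that library) and cholesterol synthesis genes 0.42 (-0.06 without it, and up to 0.70 without 1 other library).

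HIF targets leaned the other way. Of 24, 15 were below 0 and none was called, and the median log2 change was -0.29, with -0.54 without shGFP replicate 1, -0.55 without shGFP replicate 2 and -0.16 without shRARRES2_1 replicate 1. Below all controls lay 9 (37.5%, where 14.6% of all genes did) and above them 1. VEGFA had 311, 461 and 447 CPM with shRARRES2_1, against 2040, 911 and 2738 CPM with shGFP (log2 change -2.10, limma adjusted p = 0.153). EPAS1, which encodes HIF-2 alpha, the HIF subunit that drives this tumour type, had 232, 266 and 268 CPM, against 450, 464 and 1009 CPM with shGFP (log2 change -1.22, limma adjusted p = 0.150). For both genes the 3 hairpin libraries lay under the 3 controls, and neither passed. Matrix genes had a median of -0.36, which was -0.13 without shGFP replicate 1, -0.71 without shGFP replicate 2, -0.25 without shGFP replicate 3 and -0.24 without shRARRES2_1 replicate 1; 7 of 21 lay below all controls (33.3%) and 1 above. TGFBI had 1361, 849 and 888 CPM with shRARRES2_1, against 5965, 1777 and 5554 CPM with shGFP (limma adjusted p = 0.141).

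Cytosolic ribosomal protein genes were below 0 in 68 of 79 cases with a median of -0.44, although 6 lay below all controls, a share of 7.59% where 14.6% of all genes did. Their sum was 99384, 30817 and 28043 CPM with shRARRES2_1 and 50689, 82952 and 42399 CPM with shGFP, so hairpin replicate 1 and shGFP replicate 2 were high. Such sums carry the authors' adjustment between libraries. All genes together came to 1252990, 888720 and 881372 CPM in shRARRES2_1 replicates 1, 2 and 3. In shGFP replicates 1, 2 and 3 they came to 935337, 928032 and 993013 CPM. The median was -0.87, -0.19 and -0.11 without shRARRES2_1 replicates 1, 2 and 3, and -0.08 without shGFP replicate 2. NRF2 targets had a median of 0.31, which moved between 0.18 and 0.64 when 1 library was left out, the lowest without shRARRES2_1 replicate 2 and the highest without shGFP replicate 2. Above all controls lay 5 of 22, or 22.7% where 17.5% of all genes did. Among them HMOX1, heme oxygenase 1, had 503, 336 and 323 CPM, against 71.9, 167 and 62.8 CPM with shGFP (log2 change 2.05, limma adjusted p = 0.0987), and NQO1 had 339, 260 and 250 CPM, against 92.2, 57.2 and 120 CPM with shGFP (limma adjusted p = 0.211).

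Simple epithelial keratins stood beside KRT81. Of 10 keratins measured, 5 lay above all controls, where 17.5% of all genes did, and KRT81 was the one called, where 0.0693% of all genes rose. KRT18 had 594, 153 and 137 CPM with shRARRES2_1, against 84.5, 53.7 and 72.3 CPM with shGFP (limma adjusted p = 0.274). Keratins of stratified epithelium were spread widely among the controls. KRT5 had 8.18, 4.22 and 0.716 CPM with shRARRES2_1 and 0, 169 and 3.81 CPM with shGFP, and KRT14 had 5.10, 2.81 and 0.382 CPM with shRARRES2_1 and 0, 119 and 2.31 CPM with shGFP. Neither passed the test, and their log2 changes of -1.10 and -1.21 turned to 0.99 and 0.81 without shGFP replicate 2. Of 10 keratinocyte markers 6 passed the filter, and the list summed to 63.5, 29.9 and 20.3 CPM with shRARRES2_1 and 15.1, 492 and 33.8 CPM with shGFP. Its median log2 change was -1.15 with all libraries and 0.90 without shGFP replicate 2, and it was -2.16 to -0.52 without 1 of the others. The fibroblast markers, 5 of 8 measured, summed to 30.5, 31.4 and 16.3 CPM with shRARRES2_1 and 4.97, 99.6 and 20.9 CPM with shGFP. Both lists were high in shGFP replicate 2; KRT5, KRT14 and KRT6A were at 0 in shGFP replicate 1. The library closest to shGFP replicate 2, shRARRES2_3 replicate 2, had a median of 17.5 CPM for mitosis and 5.29 CPM for interferon genes. Those of shGFP replicate 2 were 13.5 and 7.12 CPM. For keratinocyte markers the medians were 2.27 CPM in shRARRES2_3 replicate 2 and 72.2 CPM in shGFP replicate 2. Whether the RNA of other cells had a part in the low mitosis and interferon values of shGFP replicate 2 was not tested, and fewer cells of a type and less RNA per cell cannot be told apart in bulk samples.

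**Figure D4:**
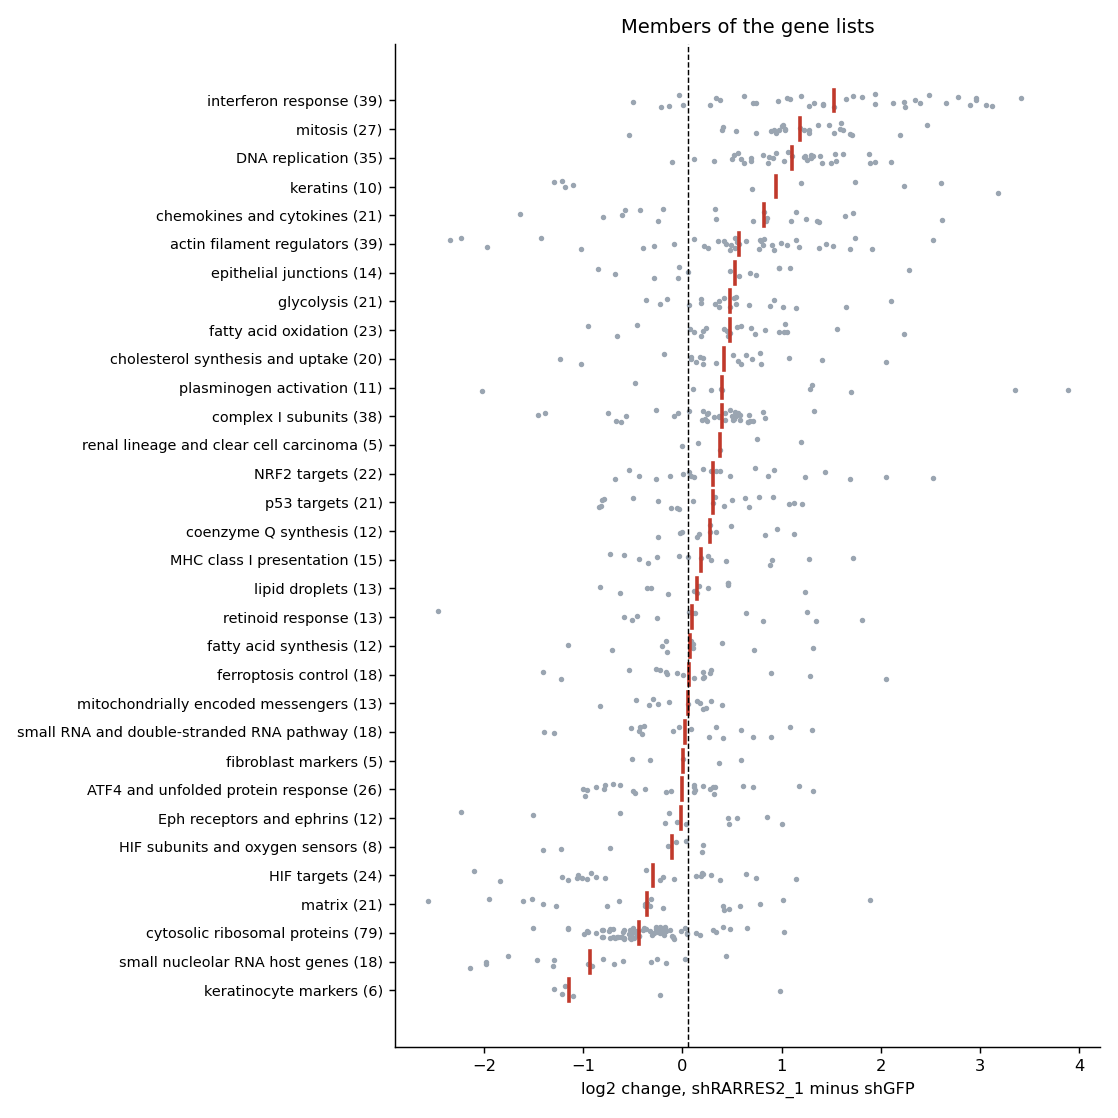
Log2 change of shRARRES2_1 minus shGFP for each member (grey points) of the lists with at least 5 members measured, whose number stands in brackets; the red bar is the list's median and the dashed line the median of all genes, 0.05. Interferon, mitosis and DNA replication genes lie mostly to the right, and snoRNA host and ribosomal protein genes mostly to the left.

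Set against the mean of shRARRES2_2 and shRARRES2_3, which target the same gene, 16 genes were higher with shRARRES2_1 (0.111%) and 15 lower (0.104%) at a limma adjusted p under 0.05, of 1471 with an unadjusted p under 0.05. With the replicate number as a block 75 genes were called, 42 higher and 33 lower. Deviations from the group mean at equal number correlated between shRARRES2_1 and shRARRES2_3 (0.762, 0.497 and 0.426) and not between shRARRES2_1 and shRARRES2_2 (-0.101, -0.200 and 0.147). Unequal numbers correlated too: shRARRES2_1 replicate 2 with shRARRES2_3 replicate 3 at 0.405, and replicate 3 with replicate 2 at 0.490. As shRARRES2_1 replicates 2 and 3 are nearly alike, these values are not separate, and only the likeness of replicate 1 bears on pairing. RARRES2 was not among the genes called without the block: it had 92.6, 53.5 and 73.5 CPM with shRARRES2_2 and 44.2, 49.7 and 40.3 CPM with shRARRES2_3 (log2 difference -0.50, limma adjusted p = 0.504). Both comparisons use the shRARRES2_1 libraries, and 10 genes were called in both, 6 higher and 4 lower. GOLGA7B, at 30.9 to 64.9 CPM with shRARRES2_1, had 0.793, 1.43 and 4.80 CPM with shRARRES2_2 and 2.32, 0.349 and 1.72 CPM with shRARRES2_3 (log2 difference 4.28, SE 0.42; limma adjusted p = 0.00214). SERPINB2 was at or under 0.811 CPM in all 6 libraries of the other hairpins (log2 difference 3.78, limma adjusted p = 0.00324). ABCC9, KLRC1, RP11-95M15.3 and CCRL2 were the others of the 6.

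Some of the genes higher than with the other hairpins were not called against shGFP. CLDN4, a tight junction claudin, had 86.1, 80.4 and 80.5 CPM with shRARRES2_1, 18.9, 6.54 and 27.5 CPM with shRARRES2_2, 31.8, 23.2 and 24.6 CPM with shRARRES2_3, and 33.2, 38.9 and 43.7 CPM with shGFP (log2 difference from the other hairpins 1.98, limma adjusted p = 0.0444). FAM134B, a receptor for autophagy of the endoplasmic reticulum, had 4.25, 19.9 and 21.8 CPM with shRARRES2_1 and at most 2.75 CPM in the other 9 libraries (log2 difference 2.73, limma adjusted p = 0.0444). KCNQ3, a voltage-gated potassium channel subunit, had 4.20, 12.8 and 10.4 CPM with shRARRES2_1, at most 1.40 CPM with the other hairpins, and 1.34, 0.624 and 4.30 CPM with shGFP (log2 difference 2.41, limma adjusted p = 0.0386). DDR1, a collagen receptor kinase, had 86.7, 85.2 and 84.4 CPM with shRARRES2_1, which overlapped the 88.4, 51.97 and 77.7 CPM of shGFP, and it was lowest with shRARRES2_3 at 20.2, 20.2 and 17.3 CPM (log2 difference from the other hairpins 1.30, limma adjusted p = 0.0481).

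Among the 15 lower genes, MTPN, MARCKSL1, AP3M1 and RAB1A were the 4 called in both comparisons. MTPN had 386, 372 and 339 CPM with shRARRES2_2 and 296, 353 and 367 CPM with shRARRES2_3, levels near those of shGFP (log2 difference -2.44, SE 0.25; limma adjusted p = 0.00214). RAB1A had 220, 192 and 227 CPM with shRARRES2_2 and 210, 188 and 205 CPM with shRARRES2_3 (log2 difference -1.72, limma adjusted p = 0.00321). PPIL1, a cyclophilin of the spliceosome, had 10.8, 10.2 and 7.69 CPM with shRARRES2_1, against 37.3, 59.9 and 34.9 CPM with shRARRES2_2 and 66.7, 27.6 and 53.8 CPM with shRARRES2_3 (log2 difference -2.12, limma adjusted p = 0.00984). TMX1, a thioredoxin-like protein of the endoplasmic reticulum, had 21.99, 37.9 and 39.9 CPM with shRARRES2_1, against 128, 165 and 113 CPM with shRARRES2_2 and 112, 108 and 147 CPM with shRARRES2_3 (log2 difference -1.95, limma adjusted p = 0.00394). CAPZA1 was among them too, at 65.4, 104 and 106 CPM with shRARRES2_1 and 244 to 310 CPM with the other hairpins (log2 difference -1.59, limma adjusted p = 0.00917). The actin list of 39 thus held 3 of the lowered calls, where 0.104% of all genes were lowered. The rest were TMEM64, TOR1AIP1, CBX1, LANCL1, RSPRY1, APMAP, MED28 and HACD3. In all 15 genes the shRARRES2_1 libraries were the lowest of the series. With replicates 2 and 3 averaged 10 genes were called in this comparison, and without 1 library 10 to 62, the highest without shRARRES2_3 replicate 1 and the lowest without shRARRES2_1 replicate 3.

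**Figure D5:**
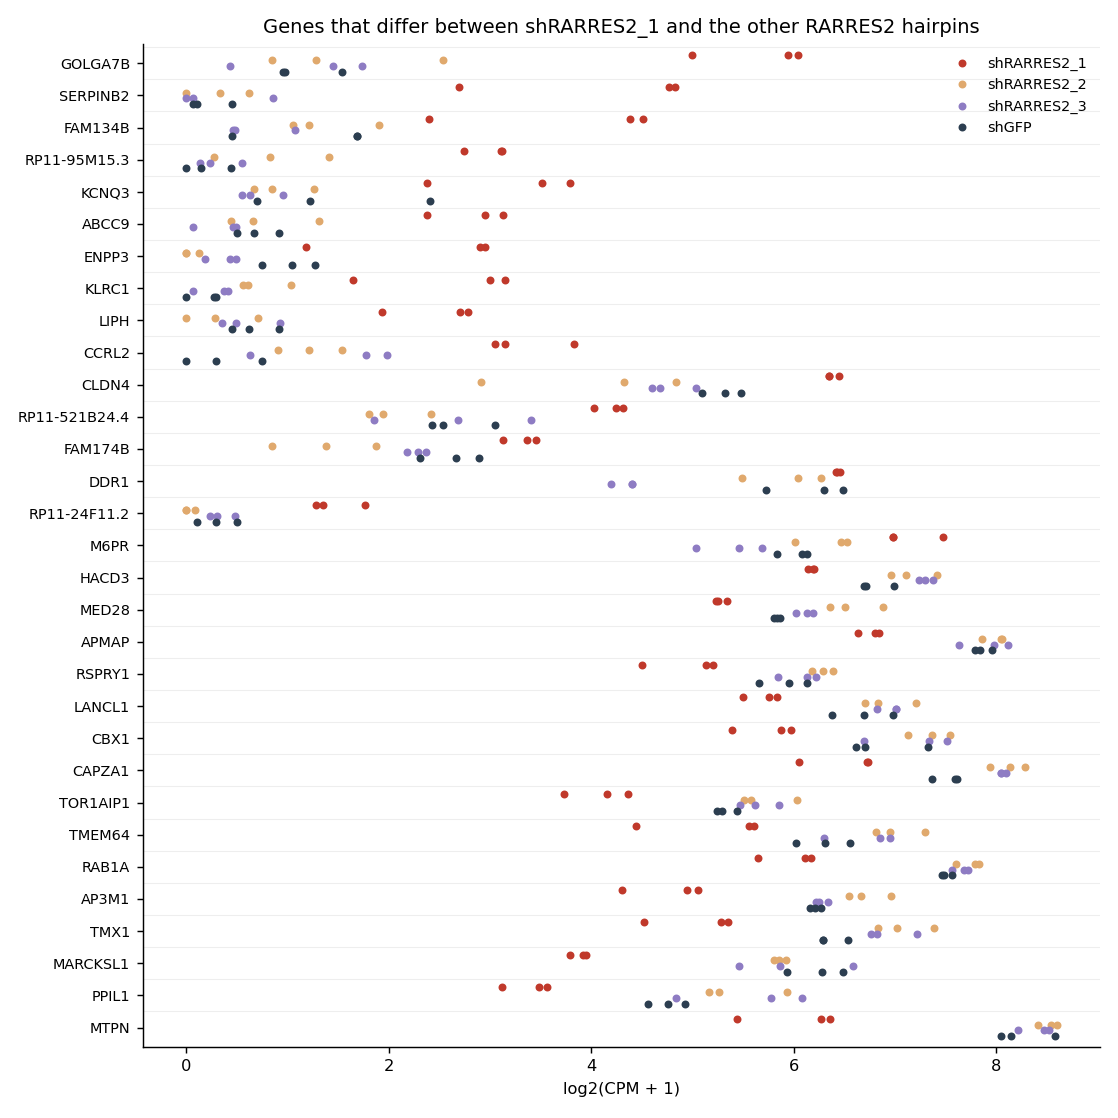
Log2(CPM + 1) of the 31 genes that differed between shRARRES2_1 (red, top of each row) and the mean of shRARRES2_2 and shRARRES2_3 (orange and violet), with shGFP (dark blue) below; each point is a library. The raised genes fill the upper rows, and in the lower rows the red points lie to the left of all others.

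Within shRARRES2_1, the genes below are those in which replicate 1 differed most from replicates 2 and 3, which were alike in nearly all genes. MMP1, the interstitial collagenase, had 2.02 CPM in replicate 1 and 140 and 150 CPM in replicates 2 and 3, against 1.26, 9.41 and 0.710 CPM with shGFP. The nuclear noncoding RNA NEAT1 had 29.9 CPM in replicate 1 and 780 and 765 CPM in the others, against 2227, 3494 and 1883 CPM with shGFP. KCNQ1OT1, a noncoding RNA kept at its imprinted locus, had 2.496 CPM in replicate 1 and 40.8 and 43.4 CPM in the others, against 34.3, 49.2 and 24.3 CPM with shGFP. IGFN1, RP11-255B23.3 and GS1-600G8.5 were lower in replicate 1 by the same measure.

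In the other direction, CDC20, an activator of the anaphase-promoting complex, had 973 CPM in replicate 1 and 171 and 159 CPM in replicates 2 and 3, against 127, 11.2 and 101 CPM with shGFP. OASL, an interferon-induced gene, had 368 CPM in replicate 1 and 62.8 and 69.4 CPM in the others, against 12.7, 2.13 and 65.6 CPM with shGFP. HIST1H1E, POLD2 and RPS3A were higher in replicate 1 by the same measure. Replicate 1 of shRARRES2_3 had like values for several of these genes, with 31.1 CPM of NEAT1, 4.35 CPM of KCNQ1OT1, 848 CPM of CDC20 and 258 CPM of OASL. For MMP1 all 3 shRARRES2_3 libraries were low, at 0.348, 0.200 and 0.932 CPM. What made replicate 1 of shRARRES2_1 differ was not tested.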

How the data were processed

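The deposited values, 12 libraries in 4 groups of 3 named from the sample titles, are CPM after TMM scaling, a signal per gene that the authors had adjusted for depth. The submitters' processing notes name STAR 2.5.2, Trim Galore 0.6.1, CASAVA and edgeR, with hg38 (GRCh38) as the build; the annotation and the use of strand are not given in the sources used here. All values were whole multiples of 1 read in their column (100% at a tolerance of 1e-06), so reads could be recovered. Counting error is small beside the spread between libraries except near 1 CPM. The tests were set for CPM without that scaling and were kept.

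Identifiers were matched to GENCODE 29 for 14419 of the 14426 genes; coordinates are 1-based. Values were taken as log2(CPM + 1), which understates changes of low genes. In R 4.3.3, limma 3.58.1 took group means over all 12 libraries with a mean-variance trend, Benjamini-Hochberg adjustment at 0.05, for shRARRES2_1 against shGFP and against the mean of the other hairpins; the fit was tested on simulated data. Replicate numbers were not used as a block.

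The members, the gene lists and the rule for named genes were chosen with earlier results of these data known. The rule takes the chemerin genes with EPAS1, KLF6 and CPT1A; all genes called; the 8 widest gaps in each direction with 5 CPM in the higher group; the 5 largest calls each way against the other hairpins; the first 3 members of each list; and the 6 genes each way that set replicate 1 apart, of which 1 is not reported here. Lists are given as counts and medians, without a test. edgeR 4.0.16 and DESeq2 1.42.0 on recovered reads, other pseudocounts, filters, scalings and spreads, and leaving out each library were alternatives.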

Additional observations from a re-analysis of the deposited data

How the results depend on the processing

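Against shGFP, where 20 genes were called, the count was 92 at an adjusted p of 0.1, 12 without a filter on low values, 6 on a common total, 62 with only the 6 compared libraries, 6 with shRARRES2_1 replicates 2 and 3 averaged, 3 by edgeR (0 higher) and 474 by DESeq2 (210 higher, 264 lower). Of the 20 calls, 12 were kept with only the 6 compared libraries. Leaving out 1 library gave counts of 3 to 207. Against the other hairpins, where 31 were called, the counts were 107 at 0.1, 50 with a pseudocount of 3, 61 without a filter, 10 with the replicates averaged and 377 by DESeq2, and 10 to 62 leaving out 1 library. With the replicate number as a block the counts were 19 and 75. Deviations from the group means of shRARRES2_1 and shGFP libraries of equal number correlated at 0.004, -0.061 and 0.141. Deviations of equal number correlated at 0.762, 0.497 and 0.426 between shRARRES2_1 and shRARRES2_3, all above 0.1. Between shRARRES2_1 and shRARRES2_2 they correlated at -0.101, -0.200 and 0.147. As shRARRES2_1 replicates 2 and 3 are nearly alike, their values cannot tell pairing by number from its absence. Replicate 1 alone bears on it, at 0.004 with shGFP, 0.762 with shRARRES2_3 and -0.101 with shRARRES2_2. Whether replicate 1 of shRARRES2_1 and replicate 1 of shRARRES2_3 shared a batch was not tested. The labels give no shared batch. Genes whose hairpin libraries lay below all controls numbered 2112 and, without a filter, 3638. The cause of these shifts was not tested, except that fewer genes or samples enter some fits. Over 496 refits of the 20 called genes, 291 kept the call, 205 kept the direction without it and 0 reversed. The percentage of RARRES2 left was 6.14% to 8.33% throughout. KLF6 had 291, 432 and 456 CPM with shRARRES2_1 and 412, 140 and 432 CPM with shGFP (limma adjusted p = 0.622). Depth limits genes near 1 CPM, where 3 reads amounted to 0.143 to 0.223 CPM.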
